A study of Mus musculus with 6 samples.

Results

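The left ventricular transcriptome after AngII 24 h was compared with that of Sham mice in 4 of the 6 libraries of an RNA immune-precipitation sequencing (RIP-seq) experiment. RIP-seq recovers the RNA that an antibody pulls down from a lysate. Male mice aged 10 weeks carried a subcutaneous osmotic minipump that delivered angiotensin II (AngII) at 1 mg/kg/min, and Sham mice received saline by the protocol, although their treatment label reads untreated. Each group had 2 mice. Lysates of their left ventricles were incubated with an antibody against EZH2, the methyltransferase of Polycomb repressive complex 2, or with control IgG, and each library pooled 2 such products. The libraries were Sham-IgG, Sham-antiEZH2, AngII 24h-IgG and AngII 24h-antiEZH2, and the 2 libraries made after AngII 4 h are given only for reference. The strain label reads C57BL/6 for both Sham libraries and AngII 24h-IgG, but C57BL/8 for AngII 24h-antiEZH2.

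There was 1 library for each group and antibody. The antibodies give a pair of looks at the same hearts and no replication between mice, so no test was possible and every difference below is between these libraries. Levels are in FPKM, fragments scaled to transcript length and to the mapped fragments of a library. Of 46012 genes, 8293 had an FPKM above 1 in at least 2 of the 4 libraries. The change of a gene is the log2 ratio of AngII 24 h to Sham, with 0.5 FPKM added to both levels, less the median of the 8293 genes in the same antibody. A gene was called higher or lower when its change was 2-fold or more in the same direction in both antibodies. Changes are given as the mean ± SD over the 2 antibodies, and folds as IgG and then anti-EZH2. Every fold is this centred change on a linear scale, so it differs from the plain ratio of the 2 FPKM. A gene above 1 FPKM in both libraries of 1 group and in neither of the other passed the level filter through that group, which fixed its direction before centring. Of the 8293 genes, 246 passed through Sham in this way and 254 through AngII 24 h.

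Angiotensin II signals in the heart mainly through its type 1 receptor on cardiomyocytes and fibroblasts. It raises blood pressure and is known as a cause of hypertrophy, in which heart muscle cells enlarge, re-express fetal genes such as the natriuretic peptides and change their fuel use, while fibroblasts lay down matrix. One day of infusion lies in the early phase of this response.

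At AngII 24 h, 183 of 8293 genes were higher (2.21%) and 269 were lower (3.24%). Another 390 genes (4.7%) moved by 2-fold or more in opposite directions in the 2 antibodies, so discordant genes were of the same order as the concordant ones. Without a size limit, 2295 genes were higher in both antibodies (27.7%) and 2294 were lower in both (27.7%), which made 4589 genes with an agreed direction. Of 6899 protein-coding genes, 152 were higher, 183 lower and 243 discordant. The FPKM intervals deposited with the values lay apart in both antibodies for 9 of the higher and 14 of the lower protein-coding genes. A value of 0 had both limits at 0, so any lower limit above 0 in the other group counted as apart. This held for Prm1, Tnp2, Pgk2, Myl7, Myl4 and Telo2 in the IgG libraries, the anti-EZH2 libraries or both. The genes with intervals apart, the members of the gene lists and a set of genes with a known part in the response are described below.

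**Figure D1:**
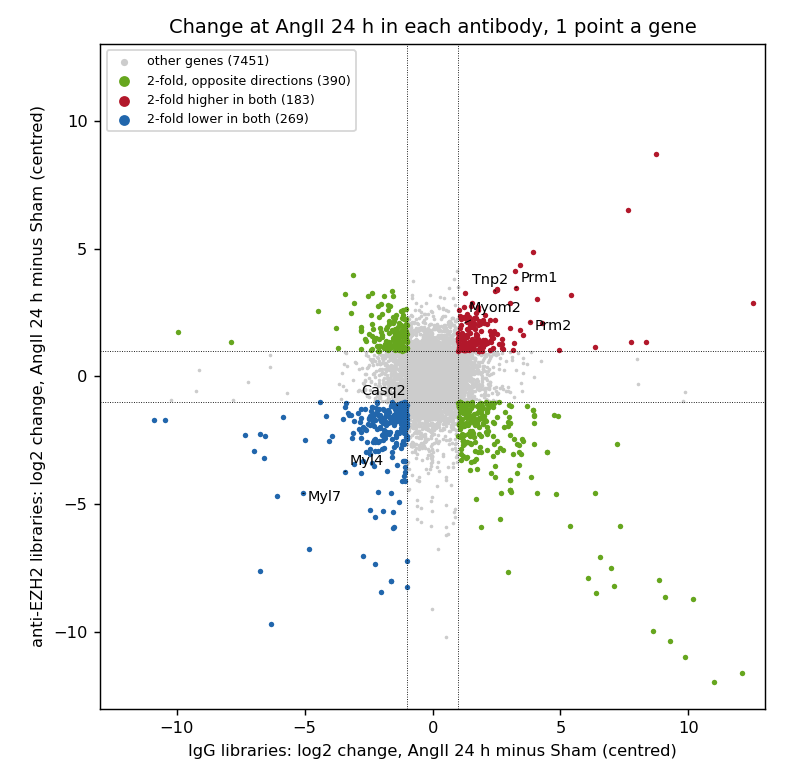
Centred log2 change from Sham to AngII 24 h in the IgG libraries (horizontal axis) and in the anti-EZH2 libraries (vertical axis), 1 point for each of the 8293 genes, with dotted lines at 2-fold. The 183 genes higher in both and the 269 lower in both lie in opposite corners, and the 390 discordant genes fill the other two.

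The spread of the changes was as wide as the difference between antibodies within a group. Over the tested protein-coding genes, the SD of the log2 change was 0.897 in IgG and 0.922 in anti-EZH2, while the SD of the log2 ratio of anti-EZH2 to IgG was 0.874 in Sham and 0.914 after 24 h of AngII. Agreement was closer for genes of higher level up to 10 FPKM. Pearson's r between the antibodies' changes was 0.0875 across 6679 protein-coding genes detected in all 4 libraries and 0.402 across the 573 above 10 FPKM in all 4. The share changed in the same direction was 55.5% in the former and 64.4% in the latter. Above 50 FPKM, with 143 genes, r was 0.267 and the share 63.6%. These are correlations across genes, which share the same 4 libraries. Estimated depth was between 3710575 fragments in AngII 24h-IgG and 5517241 in Sham-antiEZH2, so that 1 FPKM of a 2-kb transcript stood for between 6.68 and 9.94 fragments.

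**Figure D2:**
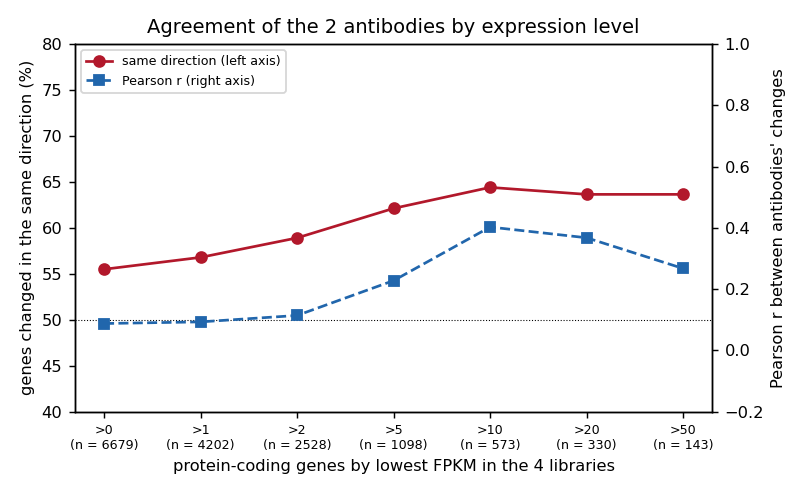
Share of protein-coding genes changed in the same direction in both antibodies (circles, left axis, with a dotted line at 50%) and Pearson's r between the antibodies' changes (squares, right axis), by the lowest FPKM in the 4 libraries. Both were lowest when all detected genes were kept, at 55.5% and 0.0875, and highest for genes above 10 FPKM, at 64.4% and 0.402.

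Among the lower genes were 2 of the atria. Both had passed the level filter through Sham, so their direction at AngII 24 h is no support. Myl7, which encodes the atrial regulatory myosin light chain (chromosome 11, 5896637 to 5898782, minus strand, GRCm38), was at 14.3 FPKM in Sham-IgG and 12.2 in Sham-antiEZH2. It was listed at 0 in both AngII 24 h libraries. The Sham values rested on an estimated 23.5 and 26.3 fragments. Myl4, the atrial essential myosin light chain (chromosome 11, 104550663 to 104595753, plus strand), was at 9.50 and 6.57 FPKM in the Sham libraries, 0.552 in AngII 24h-IgG and 0 in AngII 24h-antiEZH2. In the AngII 4 h libraries Myl7 was already at 0.491 and 0.323 FPKM, and Myl4 at 0.562 and 0.555. Sham and AngII values of both genes therefore did not overlap in any antibody or at either time. No fold is given for Myl7, because every AngII 24 h value was 0.

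The other 2 atrial markers, Sln (sarcolipin, an inhibitor of the calcium pump) and Bmp10 (an atrial growth factor), were listed at 0 in all 6 libraries. Against the ventricular regulatory light chain Myl2, at 3045 and 2122 FPKM in Sham and 3294 and 2114 after 24 h of AngII, the Sham levels of Myl7 and Myl4 were low. The sum of the 4 atrial markers was 23.8 and 18.8 FPKM in Sham and 0.552 and 0 after 24 h of AngII. Whether atrial tissue in the Sham dissections plays a part in these values was not tested. As in every comparison of these pull-down libraries, fewer cells of a type, less RNA per cell and less RNA recovered by the antibody cannot be told apart.

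Genes of the male germ line were among the higher ones. Prm1 encodes protamine 1, which packs sperm DNA in place of histones (chromosome 16, 10796326 to 10805839, minus strand). It was listed at 0 in both Sham libraries and was at 4.91 FPKM in AngII 24h-IgG and 4.70 in AngII 24h-antiEZH2, from an estimated 4.92 and 5.88 fragments. Tnp2, transition nuclear protein 2 of spermatids (chromosome 16, 10787936 to 10788660, minus strand), went from 0.666 and 0 FPKM in Sham to 6.80 and 4.22. Pgk2, the testis form of phosphoglycerate kinase, was listed at 0 in both Sham libraries and was at 1.32 and 1.20 FPKM at AngII 24 h.

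A list of 28 male germ cell genes was drawn up after these values were seen, so its counts are a description only. In the Sham libraries 23 and 22 of the 28 were listed at 0, against 8 and 7 in the AngII 24 h libraries. Their summed level was 3.50 and 2.58 FPKM in Sham, 47.8 and 28.8 after 24 h of AngII, and 69.0 and 49.5 at AngII 4 h. Prm2 (protamine 2) was at 0.552 and 0.838 FPKM in Sham and 16.3 and 4.99 after 24 h of AngII. Tnp1 went from 0 and 0.747 to 5.58 and 3.56 FPKM, and Gapdhs, the sperm form of glyceraldehyde phosphate dehydrogenase, from 0 in both to 1.35 and 1.76. Only 6 of the 28 passed the level filter, and they passed it through the AngII 24 h libraries, where they had to be high. All 4 AngII libraries held these transcripts, and both Sham libraries held few or none. Whether tissue other than ventricle or RNA from outside these hearts plays a part was not tested.

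**Figure D3:**
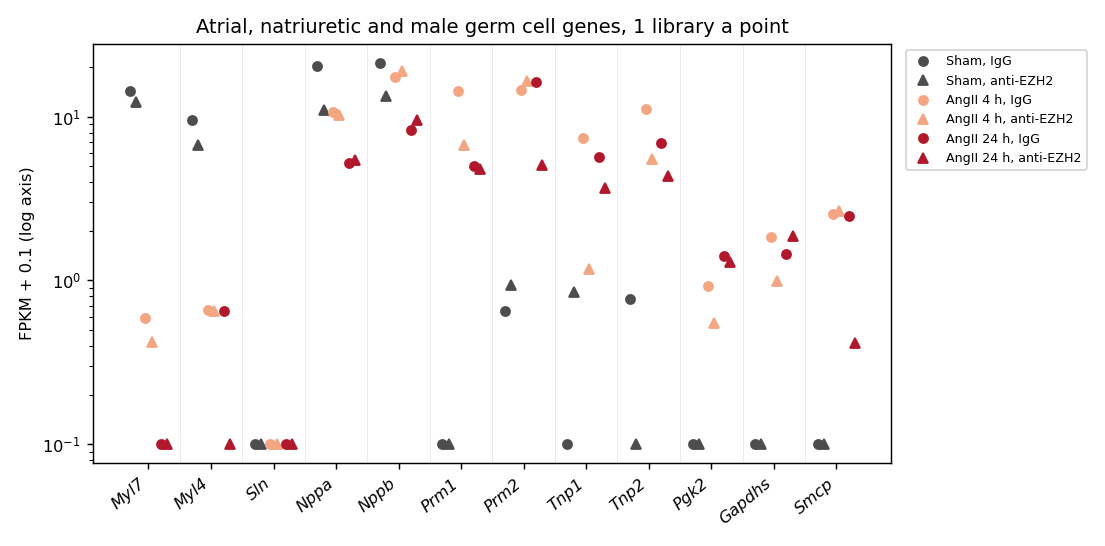
FPKM plus 0.1 on a log axis for atrial, natriuretic peptide and male germ cell genes in each of the 6 libraries (colours for groups, circles for IgG, triangles for anti-EZH2, and a value of 0 drawn at 0.1). Myl7 and Myl4 lie above 6 FPKM in Sham and below 1 in every AngII library, and Prm1, Prm2 and Tnp2 lie below 1 in Sham and above 4 in every AngII library.

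The promoters of 5 of these genes are printed because the genes moved together in 2 groups, and Prm1, Prm2 and Tnp2 are neighbours on chromosome 16. They run from 250 bases before to 50 bases after the RefSeq start (GRCm38.p6), 5′ to 3′ on the strand of the gene: Myl7 at chr11:5898733-5899032 (minus), Myl4 at chr11:104550413-104550712 (plus), Prm1 at chr16:10796774-10797073, Prm2 at chr16:10792056-10792355 and Tnp2 at chr16:10788606-10788905 (all minus). Capitals mark a CArG box, the site type of serum response factor, in Myl7 and Prm1, and the Sp1 letters GGGCGG on the other strand in Prm2 and Tnp2.
Myl7: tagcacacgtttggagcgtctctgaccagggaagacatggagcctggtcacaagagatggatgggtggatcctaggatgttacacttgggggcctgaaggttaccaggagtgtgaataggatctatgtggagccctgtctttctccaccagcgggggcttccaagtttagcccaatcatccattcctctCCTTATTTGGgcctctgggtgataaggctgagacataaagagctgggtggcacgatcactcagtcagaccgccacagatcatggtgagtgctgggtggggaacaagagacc
Myl4: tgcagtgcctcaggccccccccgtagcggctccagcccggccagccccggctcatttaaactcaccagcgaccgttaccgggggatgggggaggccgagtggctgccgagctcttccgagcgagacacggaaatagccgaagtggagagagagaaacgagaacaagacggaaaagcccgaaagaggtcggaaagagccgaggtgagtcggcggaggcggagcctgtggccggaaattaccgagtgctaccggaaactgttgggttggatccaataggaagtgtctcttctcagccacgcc
Prm1: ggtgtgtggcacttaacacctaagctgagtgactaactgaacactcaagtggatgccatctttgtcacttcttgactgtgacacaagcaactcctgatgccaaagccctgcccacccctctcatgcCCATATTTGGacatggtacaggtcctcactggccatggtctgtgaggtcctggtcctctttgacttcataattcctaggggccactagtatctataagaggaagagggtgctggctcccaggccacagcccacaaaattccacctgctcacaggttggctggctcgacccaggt
Prm2: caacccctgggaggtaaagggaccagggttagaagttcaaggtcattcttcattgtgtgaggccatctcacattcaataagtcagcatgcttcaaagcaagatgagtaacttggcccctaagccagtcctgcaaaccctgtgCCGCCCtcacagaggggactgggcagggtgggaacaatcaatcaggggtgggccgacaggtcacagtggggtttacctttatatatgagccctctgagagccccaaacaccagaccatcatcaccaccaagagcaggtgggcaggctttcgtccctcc
Tnp2: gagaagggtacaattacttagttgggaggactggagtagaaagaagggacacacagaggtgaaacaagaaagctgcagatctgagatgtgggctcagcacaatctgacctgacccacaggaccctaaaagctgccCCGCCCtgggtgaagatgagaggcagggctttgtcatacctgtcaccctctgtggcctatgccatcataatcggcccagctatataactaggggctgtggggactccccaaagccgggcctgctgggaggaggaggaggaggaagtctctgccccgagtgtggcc

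The CArG box lay at -61 to -52 in Myl7 and at -124 to -115 in Prm1, counted from the start site, and 1.63% of all 32851 RefSeq promoters of this length hold one. The Sp1 letters lay at -108 to -103 in Prm2 and at -115 to -110 in Tnp2, and 35.7% of promoters hold them. Also searched on both strands were the E-box CACGTG (7.15% of promoters), the D-box TTATGTAA (0.938%), the cyclic AMP element TGACGTCA (1.79%), the AP-1 letters TGANTCA (7.81%), the ROR element (0.411%) and the glucocorticoid element (0.0487%). None of these letters was in the 5 windows. The 2 groups of genes thus shared no motif that was common to all members of a group.

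The natriuretic peptides, which serve as markers of cardiac load, were not higher at AngII 24 h. Nppa was at 20.2 and 10.8 FPKM in Sham and 5.14 and 5.36 after 24 h of AngII. Its change was -1.46 ± 0.85 (SD, 2 antibodies), and only the IgG pair passed 2-fold. Nppb was at 21.2 and 13.3 FPKM in Sham and 8.15 and 9.39 after 24 h of AngII, a change of -0.95 ± 0.79. For both peptides all Sham values lay above all AngII 24 h values, but the antibodies differed widely in the size of the change. Nppa is also an atrial transcript, and the atrial genes Myl7 and Myl4 were lower in the same libraries (14.3 and 12.2 FPKM in Sham against 0, and 9.50 and 6.57 against 0.552 and 0). Both of these atrial genes had passed the level filter through Sham, and their part in the values of Nppa was not tested.

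Of 17 genes of the hypertrophy and fetal program, 15 were tested, and 5 were higher and 7 lower in both antibodies. None reached 2-fold in both. Acta1, the skeletal actin of the fetal heart, was at 38.1 and 24.3 FPKM in Sham and 35.2 and 13.6 after 24 h of AngII. Myh7, the fetal myosin heavy chain, was at 31.7 and 30.1 FPKM and then 48.3 and 32.1, and its change of 0.30 ± 0.16 was matched by the adult chain Myh6, which changed by 0.34 ± 0.13 from 678 and 526 to 1050 and 586 FPKM. Ankrd1, a stretch-responsive titin-binding protein, changed by 0.20 ± 0.04. The median change of the list was -0.30 in each antibody, and the median of its members' mean changes was -0.38. The latter was 0.25 over the 6 members above 10 FPKM in all 4 libraries and 0.09 in the series-wide FPKM table. The list thus has no settled direction.

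Heart muscle genes leaned upward. Over the 573 protein-coding genes above 10 FPKM in all 4 libraries, 220 were higher in both antibodies (38.4%) and 149 lower (26%). Of 13 cardiomyocyte markers, 9 were higher in both and 2 lower, with a median change of 0.27 in IgG and 0.28 in anti-EZH2. Tnni3 and Tnnt2, the cardiac troponins I and T, changed by 0.38 ± 0.04 and 0.39 ± 0.17. Actc1, the cardiac actin, went the other way, from 761 and 602 FPKM in Sham to 618 and 379. All 13 markers were detected in every library, and their summed level was 7601 and 5885 FPKM in Sham and 9267 and 6145 after 24 h of AngII.

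Among the 28 sarcomere and Z-disc genes, 16 were higher in both antibodies (57.1%) and 7 lower, with medians of 0.12 and 0.19. Of the 23 members above 10 FPKM in all 4 libraries, 13 were higher in both and 5 lower, beside 38.4% and 26% of all protein-coding genes at that level. Myom2, which encodes the M-band protein myomesin 2 (chromosome 8, 15057653 to 15133541, plus strand), was the only called gene of the list. It was at 14.5 and 13.4 FPKM in Sham and 36.8 and 52.7 after 24 h of AngII, a centred change of 2.18- and 4.07-fold. Its relative Myom1 was at 17.9 and 15.5 FPKM and then 32.3 and 20.0, a change of 0.55 ± 0.14. Lmod2, a leiomodin that lengthens thin filaments, also changed by 0.55 ± 0.19.

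Txlnb, a muscle form of taxilin (chromosome 10, 17796226 to 17845665, plus strand), was higher by like amounts in both antibodies. It was at 11.9 and 9.31 FPKM in Sham and 33.5 and 23.0 after 24 h of AngII, a centred change of 2.40- and 2.55-fold. The deposited intervals ran from 10.2 to 13.7 and from 7.99 to 10.6 FPKM in Sham, and from 30.2 to 36.9 and from 20.7 to 25.3 after 24 h of AngII. At AngII 4 h it stood between these, at 24.6 and 19.9 FPKM. In the series-wide table its change was 0.40, well under the 1.31 ± 0.06 found here.

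Casq2, cardiac calsequestrin, the calcium store of the sarcoplasmic reticulum (chromosome 3, 102086415 to 102146514, plus strand), was lower. It was at 87.4 and 57.2 FPKM in Sham and 41.0 and 22.3 after 24 h of AngII, a change of -1.26 ± 0.02. Its intervals ran from 73.6 to 101 and from 48.2 to 66.2 FPKM in Sham and from 32.9 to 49.2 and from 17.2 to 27.5 after 24 h of AngII. At AngII 4 h Casq2 was still at 92.1 and 73.1 FPKM. It was the only called gene among the 21 tested genes of calcium handling and ion channels, of which 7 were higher in both antibodies and 5 lower. The pump Atp2a2 was at 388 and 292 FPKM in Sham, 426 in AngII 24h-IgG and 258 in AngII 24h-antiEZH2, and its inhibitor Pln changed by 0.47 ± 0.13.

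**Figure D4:**
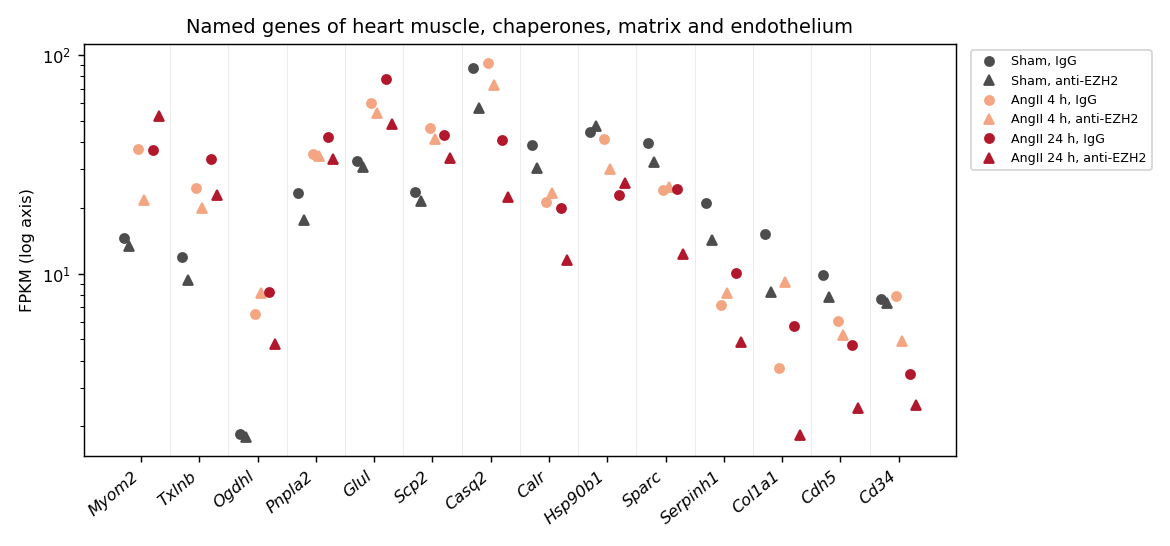
FPKM on a log axis for named genes of heart muscle, lipid and amino acid metabolism, chaperones, matrix and endothelium in each of the 6 libraries (colours for groups, circles for IgG, triangles for anti-EZH2). For Myom2, Txlnb, Ogdhl, Pnpla2, Glul and Scp2 both AngII 24 h values lie above both Sham values, and for the other 8 genes both lie below, although Hsp90b1 changes sign in the series-wide table.

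Genes of energy metabolism leaned upward, and no member of these lists reached 2-fold in both antibodies. Of 20 genes of the TCA cycle, 15 were higher in both antibodies (75.0%) and 1 was lower, with medians of 0.25 and 0.24. All 20 were above 10 FPKM in every library, where the share higher in both was 38.4%. Cs, citrate synthase, went from 45.7 and 35.7 FPKM in Sham to 75.4 and 43.2, and Dld, the shared dehydrogenase subunit, from 11.0 and 10.7 to 23.5 and 14.7. Mdh2, malate dehydrogenase, changed by 0.44 in IgG and 0.45 in anti-EZH2. In the series-wide table the median of this list was -0.07, so its direction did not hold there. Ogdhl, a relative of the oxoglutarate dehydrogenase subunit Ogdh, was called higher, from 1.85 and 1.78 to 8.23 and 4.76 FPKM (centred 3.26- and 2.46-fold), and its intervals lay apart in both antibodies.

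Of 27 tested genes of fatty acid oxidation, 16 were higher in both antibodies (59.3%) and 4 lower, with medians of 0.24 and 0.32. Over all tested genes, 27.7% were higher in both. Of the 15 members above 10 FPKM in all 4 libraries, 8 were higher in both and 2 lower, beside 38.4% and 26% of all protein-coding genes at that level. Cpt2, the inner membrane carnitine transferase, was at 7.41 and 9.18 FPKM in Sham and 17.3 and 13.1 after 24 h of AngII, a change of 0.78 ± 0.28. Hadha, of the trifunctional protein, changed by 0.68 ± 0.32. Pdk4, a kinase that spares glucose by blocking pyruvate dehydrogenase, was at 7.00 and 8.09 FPKM in Sham, 53.0 and 43.3 at AngII 4 h, and 19.6 and 9.87 after 24 h of AngII. Its change of 0.80 ± 0.61 passed 2-fold in the IgG libraries only. Pnpla2, the triglyceride lipase of lipid droplets, and Scp2, a sterol and fatty acid carrier, stood above 10 FPKM in all 4 libraries and changed by 0.82 ± 0.25 and 0.70 ± 0.04.

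Glycolysis genes showed 11 of 20 higher in both antibodies (55.0%) and 4 lower, with medians of 0.23 and 0.27. Of the 11 members above 10 FPKM in all 4 libraries, 10 were higher in both and 1 lower, beside 38.4% and 26% of all protein-coding genes at that level. Hk2, an insulin-responsive hexokinase, was at 7.57 and 4.82 FPKM in Sham and 14.6 and 9.90 after 24 h of AngII. Eno3, muscle enolase, changed by 0.57 ± 0.36 and Gapdh by 0.37 ± 0.13. The 59 nuclear genes of oxidative phosphorylation were close to the middle, with 23 higher in both, 7 lower in both and medians of 0.15 and 0.03. The 14 tested mitochondrially encoded genes had medians of 0.19 in IgG and -0.05 in anti-EZH2. Mitochondrially encoded RNA made up 31.7% of all FPKM in AngII 24h-antiEZH2 and between 12.3% and 14.1% in the other 3 libraries, and the part of this difference in the other values of that library was not tested.

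Above 10 FPKM in all 4 libraries, 6 protein-coding genes were higher by 1.5-fold in both antibodies (1.05%) and 14 were lower (2.44%), a limit chosen after the data were seen. The 6 were Myom2, Glul, Scp2, Prkar1a, Pnpla2 and Adck3. Glul, glutamine synthetase, went from 32.7 and 30.6 FPKM in Sham to 77.6 and 48.5 after 24 h of AngII. Prkar1a, the regulatory subunit of protein kinase A, went from 18.9 and 11.5 to 34.3 and 28.5, and Adck3, a kinase of coenzyme Q synthesis, from 62.0 and 36.2 to 110 and 64.9. In all 6 genes both AngII 24 h values exceeded both Sham values.

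The 14 lower genes were Gm10800, Gnai2, Casq2, Mrps21, Calr, Uqcc1, Sparc, Igfbp7, Ccdc107, Hsp90b1, Cd81, Hspb1, Rps26 and Tmsb4x. Gnai2, an inhibitory G protein subunit, was at 86.2 and 37.5 FPKM in Sham and 18.1 and 11.7 after 24 h of AngII. Mrps21, a mitochondrial ribosomal protein, was at 101 and 56.8 FPKM and then 49.7 and 17.5 (a change of -0.43 in the series-wide table), and Sparc, a collagen-binding matricellular protein, was at 39.4 and 32.5 and then 24.4 and 12.2. Uqcc1, an assembly factor of complex III, differed more between antibodies (20.0 and 111 FPKM in Sham) than between groups (11.2 and 41.6 after 24 h of AngII). In the series-wide table the change was of opposite sign for Gnai2 (0.74), Hsp90b1 (2.17), Hspb1 (0.58), Ccdc107 (0.52) and Igfbp7 (0.23), so these 5 rest on the separate tables alone.

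Chaperones and genes of the unfolded protein response were lower as a group. Of 25 tested, 2 were higher in both antibodies and 17 lower (68.0%), with medians of -0.33 and -0.41, beside 27.7% of all tested genes lower in both. Calr, the calcium-binding chaperone calreticulin of the endoplasmic reticulum, was at 38.9 and 30.3 FPKM in Sham and 20.0 and 11.6 after 24 h of AngII, a change of -1.20 ± 0.09 with intervals apart. Hspa1b, an inducible HSP70, was at 1.21 and 1.89 FPKM in Sham and 0.0504 and 0.107 after 24 h of AngII, so that it passed the level filter through Sham, and its change in the series-wide table was -0.91. Its copy Hspa1a, from which short reads can hardly be told apart, was at 0.808 and 1.43 and then 0.142 and 0.0630. Hsph1, an HSP110, was at 3.82 and 8.18 FPKM in Sham and 0.690 and 2.05 after 24 h of AngII.

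Other chaperones moved less. Pdia6, a protein disulfide isomerase, changed by -0.89 ± 0.07, and Hspa5, the main chaperone of the endoplasmic reticulum, by -0.62 ± 0.50. Herpud1, which serves the degradation of misfolded proteins, stood out on the other side, from 13.2 and 9.37 FPKM in Sham to 24.0 and 17.2 after 24 h of AngII. Dnajc3, an inhibitor of the eIF2 alpha kinases and not in the list, was called higher at 0.463 and 0.773 FPKM in Sham and 1.94 and 2.01 after 24 h of AngII, but its change in the series-wide table was 0.01. It had passed the level filter through AngII 24 h.

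Genes of matrix and of stromal cells were lower or unsettled. Of 27 tested matrix genes, 3 were higher in both antibodies and 17 lower (63.0%), beside 27.7% of all tested genes lower in both. The medians were -0.63 and -0.42, and 2 of the 27 had passed the level filter through Sham. The median of the members' mean changes was -0.33, and only -0.13 in the series-wide table. Col1a1, the main fibrillar collagen chain, was at 15.2 and 8.27 FPKM in Sham and 5.73 and 1.82 after 24 h of AngII (centred 0.348- and 0.283-fold). The basement membrane chains Col4a1 and Col4a2 changed by -1.13 ± 0.37 and -1.17 ± 0.30. Serpinh1, the collagen chaperone HSP47 (chromosome 7, 99345376 to 99353239, minus strand), was at 20.9 and 14.2 FPKM in Sham, 7.20 and 8.15 at AngII 4 h, and 10.0 and 4.87 after 24 h of AngII, with intervals apart. In the series-wide table the changes of Col1a1 (-0.68) and Serpinh1 (-0.70) were in the same direction but under 2-fold. In contrast, Col3a1 (-0.33 ± 0.17) and Dcn, the proteoglycan decorin (-0.10 ± 0.04), were nearly level.

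Genes known from fibrotic responses were low. Postn, periostin of activated fibroblasts, was at 3.56 and 2.32 FPKM in Sham and 2.03 and 4.08 after 24 h of AngII. Timp1, an inhibitor of matrix metalloproteinases, was at 1.83 and 0 and then 0.415 and 0. For both genes the groups overlapped. The 11 fibroblast markers summed to 141 and 125 FPKM in Sham and 145 and 116 after 24 h of AngII, and of 10 tested 1 was higher in both antibodies and 3 lower.

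Endothelial genes were lower in part. Cdh5, VE-cadherin of endothelial junctions, was at 9.83 and 7.83 FPKM in Sham, 6.08 and 5.26 at AngII 4 h, and 4.71 and 2.43 after 24 h of AngII, with intervals apart. Cd34, a surface sialomucin of endothelial and progenitor cells that is not in the marker list (chromosome 1, 194938819 to 194961279, plus strand), was at 7.67 and 7.32 FPKM in Sham and 3.47 and 2.50 after 24 h of AngII, a change of -1.26 ± 0.04. Of 11 tested endothelial markers, 1 was higher in both antibodies and 6 lower (54.5%), beside 27.7% of all tested genes lower in both. The medians were -0.57 and -0.35. The higher one was Emcn, at 3.39 and 1.52 FPKM in Sham and 6.68 and 1.81 after 24 h of AngII. Vwf, Tek, Tie1 and Egfl7 changed in opposite directions in the antibodies, with Vwf at 7.48 and 1.77 FPKM in Sham and 4.82 and 6.17 after 24 h of AngII. The summed level of the 12 listed was 74.4 and 50.4 FPKM in Sham and 53.6 and 45.2 after 24 h of AngII, and none was at 0 in any library. The 6 tested mural markers, of smooth muscle and pericytes, were split between 2 higher and 4 lower in both.

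Leukocyte markers were also lower. Of 9 tested, none was higher in both antibodies and 7 were lower (77.8%), beside 27.7% of all tested genes lower in both. The medians of the 9 were -0.63 and -0.58. Lyz2, at 17.3 and 15.2 FPKM in Sham and 18.3 and 10.0 after 24 h of AngII, changed by -0.29 ± 0.27. Ly6c2 (0.78 in IgG and -0.51 in anti-EZH2) and Mrc1 (0.02 and -0.58) changed in opposite directions. Cd68, a lysosomal protein of macrophages, was at 1.15 and 1.09 FPKM in Sham and 0.255 and 0 after 24 h of AngII, and was the 1 marker that passed the level filter through Sham, so its direction is no support. Folr2, a folate receptor of resident macrophages, was at 2.90 and 2.20 and then 0.598 and 0.477, with intervals apart, from an estimated 2.23 and 2.22 fragments at AngII 24 h. Folr2 is not in the marker list, and it too had passed the level filter through Sham, so its direction is no support. C1qa, of complement C1q, changed by -0.72 ± 0.06 and Cd74, the invariant chain of antigen presentation, by -0.81 ± 0.25. The 17 markers summed to 77.0 and 60.4 FPKM in Sham and 56.6 and 35.5 after 24 h of AngII.

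Transcripts of acute inflammation were scarce. Only 4 of 30 were tested, and Il6, Il1b, Tnf and the neutrophil marker Ly6g were listed at 0 in all 6 libraries. Lcn2, lipocalin 2, was at 0 in both Sham libraries, 1.87 and 1.76 FPKM at AngII 4 h, and 0.419 and 0 after 24 h of AngII. Of 9 tested interferon-response genes, none was higher in both antibodies and 6 were lower (66.7%), beside 27.7% of all tested genes lower in both. The medians were -0.54 and -0.65. Of these 9, 3 had passed the level filter through Sham and so had to be lower, among them Ifi35. It was at 1.70 and 1.55 FPKM in Sham and 0.904 and 0.256 after 24 h of AngII.

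**Figure D5:**
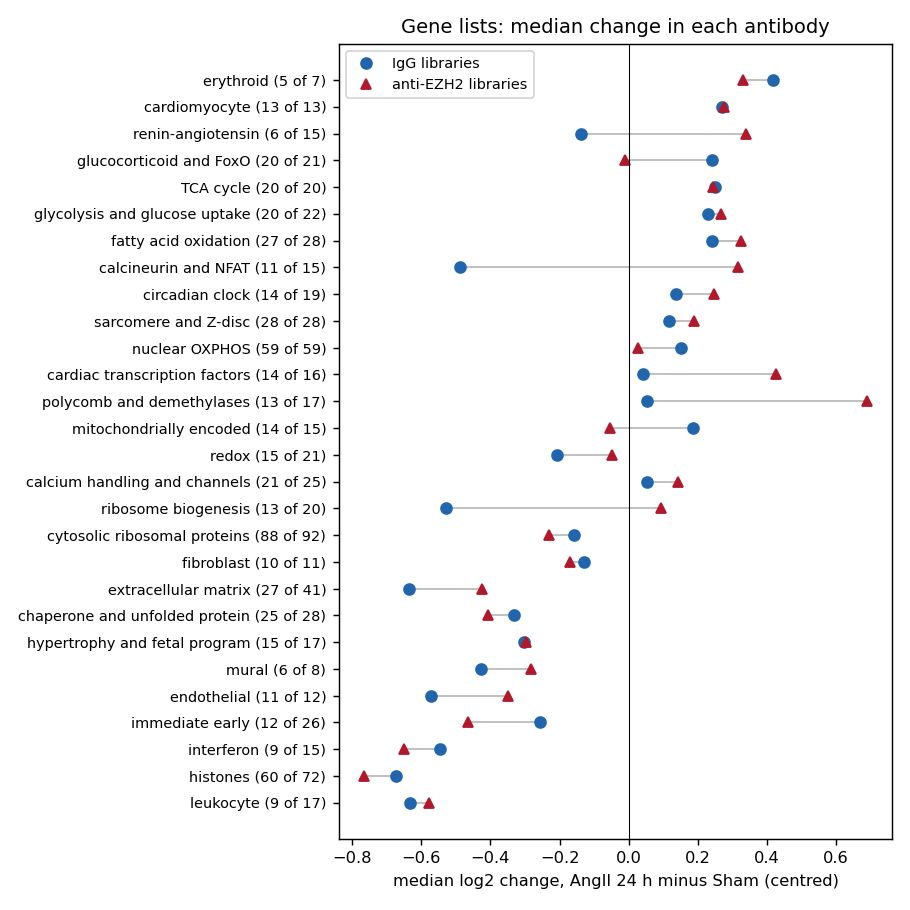
Median centred log2 change from Sham to AngII 24 h of each gene list in the IgG libraries (circles) and the anti-EZH2 libraries (triangles), with the number of members tested of those listed, for lists with at least 5 tested. The cardiomyocyte, TCA cycle, glycolysis and fatty acid oxidation lists lie between 0.22 and 0.33 in both antibodies, and the leukocyte, interferon and histone lists below -0.5 in both, with the TCA cycle and histone medians of opposite sign in the series-wide table.

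Immediate early genes were low at AngII 24 h. Fos was listed at 0 in all 4 libraries, and Egr1 was at 0.734 and 0.186 FPKM in Sham and 0.185 and 0.443 after 24 h of AngII. Of 26 genes, 12 were tested, with 4 higher in both antibodies and 7 lower, and the median over members changed sign to 0.21 in the series-wide table. Of the 12, 2 had passed the level filter through Sham, among them Ier5 at 1.65 and 2.00 FPKM in Sham and 0.767 and 0.680 after 24 h of AngII.

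Components of the renin-angiotensin system were at low levels or not detected. Agtr1a, the type 1 receptor, was at 1.16 and 1.41 FPKM in Sham and 5.16 and 1.68 after 24 h of AngII, so that both AngII values were the higher ones, with a centred change of 2.99-fold in IgG and 1.22-fold in anti-EZH2. Agt, the precursor angiotensinogen, was at 0 and 0.208 and then 0.310 and 0 FPKM. Agtr1b, Agtr2 and Ren1 were listed at 0 in all 6 libraries. Nr3c2, the mineralocorticoid receptor, was called lower, from 2.30 and 1.71 FPKM in Sham to 0.571 and 0.420, but it had passed the level filter through Sham. Of the 6 tested genes of the list, 2 were higher in both antibodies and 1 lower. Ace, the converting enzyme, was at 2.78 and 2.48 FPKM in Sham and 3.35 and 0.978 after 24 h of AngII.

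Circadian and glucocorticoid genes, which follow the hour of tissue collection and stress hormones, showed no common shift. Of 14 tested clock genes, 5 were higher in both antibodies, 2 lower, and Per1 and Per2 passed 2-fold in opposite directions. Per1 was at 2.24 and 4.77 FPKM in Sham and 7.46 and 1.92 after 24 h of AngII. Dbp changed by 0.36 ± 0.39, Nr1d1 by -0.01 ± 0.46 and Arntl, under 1 FPKM in all 4 libraries, by 0.58 ± 0.13. Tef was at 7.03 and 12.5 FPKM in Sham and 20.9 and 18.2 after 24 h of AngII.

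Glucocorticoid and FoxO targets, 20 of 21 tested, were split between 7 higher and 5 lower in both antibodies. Fkbp5, a hormone-induced cochaperone, was at 1.82 and 1.99 FPKM in Sham, 3.49 and 8.03 at AngII 4 h, and 1.62 and 0.658 after 24 h of AngII. Mt2, metallothionein 2, was at 5.88 and 4.46, then 26.4 and 26.6, then 4.44 and 2.96 FPKM. Both were above Sham at AngII 4 h and below it at AngII 24 h in both antibodies.

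The core of Polycomb repressive complex 2 was detected at low levels. Ezh2, the target of the antibody, was at 1.67 and 0.266 FPKM in Sham and 2.06 and 0.659 after 24 h of AngII. Eed was at 0.372 and 0.694 and then 2.03 and 0.112, and Suz12 at 4.81 and 1.12 and then 1.48 and 2.19. For Eed and Suz12 the antibodies disagreed in direction, and for Ezh2 the difference between antibodies was wider than that between groups. Of 13 tested genes of Polycomb complexes and histone demethylases, 5 were higher in both antibodies and 2 lower, and of 14 cardiac transcription factors 6 and 2. Neither list held a called gene.

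Other called genes fell outside these groups. Clpp, the protease subunit of the mitochondrial matrix (chromosome 17, 56990305 to 56996188, plus strand), was at 2.07 and 1.40 FPKM in Sham and 9.13 and 4.79 after 24 h of AngII (centred 3.28- and 2.97-fold). Calcoco1, a receptor for autophagy of the endoplasmic reticulum, was at 3.00 and 2.92 and then 7.55 and 7.79. Nop56, of the box C/D snoRNP, was at 2.47 and 3.09 and then 9.89 and 7.32, and was the only called gene of the 13 tested for ribosome biogenesis. Lower were Telo2, a scaffold of the phosphatidylinositol kinase-related kinases (1.68 and 2.70 in Sham, listed at 0 in both AngII 24 h libraries), Pelo, of ribosome rescue (1.98 and 1.76, then 0.375 and 0.299), and Magix (2.84 and 2.77, then 0.510 and 0.734). Telo2, Pelo and Magix had all passed the level filter through Sham, so their direction is no support. Ccnd2, cyclin D2, was at 179 and 10.7 FPKM in Sham and 60.2 and 3.46 after 24 h of AngII, with a wider gap between antibodies than between groups.

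Histone and ribosomal protein genes were lower in the separate tables only. Of 60 tested histone genes, 37 were lower in both antibodies (61.7%), 6 higher and 13 were called lower. Over all tested genes, 27.7% were lower in both and 3.24% were called lower. Of the 60, 12 had passed the level filter through Sham. Among these was Hist1h3h at 4.84 and 3.54 FPKM in Sham and 0.747 and 0.167 after 24 h of AngII. In the series-wide table the list's median was 0.81. Many histone genes are near-identical copies, so reads may have been split between them. Of 88 cytosolic ribosomal protein genes, 45 were lower in both (51.1%) and 9 higher, with medians of -0.16 and -0.23. Of the 73 above 10 FPKM in all 4 libraries, 38 were lower in both and 7 higher. At that level 26% of all protein-coding genes were lower in both. The median of the members' mean changes was -0.19, against 0.13 in the series-wide table.

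Of 282 tested long non-coding RNAs of 200 nt or more, 11 were higher, 20 lower and 26 discordant. Over all 8293 tested genes the shares were 2.21% higher, 3.24% lower and 4.7% discordant. Intervals lay apart for 1 higher gene, 0610009L18Rik, at 0 and 0.421 FPKM in Sham and 1.89 and 4.01 after 24 h of AngII. It lies on chromosome 11 (120348678 to 120351190, plus strand), and it had passed the level filter through AngII 24 h. Its Sham-IgG value of 0 had both limits at 0. Intervals lay apart for 3 lower ones, among them Gm37404 at 6.24 and 65.2 FPKM in Sham and 0 and 11.7 after 24 h of AngII. In IgG its AngII 24 h value of 0 had both limits at 0, and its Sham value rested on an estimated 4.2 fragments. Its Sham-antiEZH2 value of 65.2 lay above its own limits of 22.5 and 43.5, so intervals apart are weak evidence here. Gm26870 was at 49.9 and 193 FPKM and then 18.3 and 7.12, with the 193 above its own limits of 155 and 183. It shares 138 of its 1208 sequences of 31 bases with the gene model Gm10800, which was at 69.3 and 291 FPKM in Sham and 17.7 and 11.3 after 24 h of AngII, and Gm10800 shares 137 of its 543 with Gm10801 (9.50 and 38.3, then 1.61 and 0.462). Values of these 3 genes are therefore uncertain, and they cannot be counted as separate genes.

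Erythroid transcripts, a sign of blood in the tissue, were slightly higher. The 5 tested were all higher in both antibodies, beside 27.7% of all tested genes, with medians of 0.42 and 0.33. Hba-a1 went from 223 and 188 FPKM in Sham to 340 and 224. The 7 listed summed to 920 and 724 FPKM in Sham and 1454 and 810 after 24 h of AngII, and the part of blood content in other changes was not tested. Adipose and skeletal muscle markers were nearly absent, with a summed level of at most 3.12 FPKM in all 4 libraries, except for skeletal muscle in AngII 24h-IgG at 34.7 FPKM, all from Mylpf.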

How the data were processed

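RNA pulled down with normal IgG or anti-EZH2 from pooled left ventricles was sequenced by the authors on an Illumina NextSeq 500 after preparation with the KAPA Stranded RNA-Seq kit. The reads were mapped to the mouse genome (mm10, equal to GRCm38) with TopHat2, and the authors deposited FPKM values with a lower and an upper limit for each gene and library, besides 1 series-wide FPKM table. The program and annotation behind these FPKM values are not given in the sources used here. The limits were used as deposited, and 6.02% of values lay outside their own limits.

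The 60 genes split over several entries were left out, values under 0.001 FPKM were set to 0 and values whose status was not OK were missing. Genes above 1 FPKM in at least 2 of the 4 libraries were kept. The change was log2 of the ratio of AngII 24 h to Sham after adding 0.5 FPKM, centred on the median of kept genes, which was 0.19 in IgG and -0.09 in anti-EZH2 before centring. It understates changes of low genes. With 1 library per group and antibody, no test across replicates was made and no p-value is given. SDs over the antibodies do not measure variation between mice.

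Depth was estimated from the step between low FPKM values of transcripts of at least 1500 nt, with a mean fragment of 200 nt. Between 61.7% and 64.5% of 2227 to 2413 low values per library were whole to within 0.1 fragments, so fragment numbers are approximate. Biotypes, positions and lengths came from GENCODE M21, which held 99.6% of the kept genes, and promoters from RefSeq.

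The members and gene lists were chosen with earlier results of these data known. Genes were named by a rule: the first 12 higher and 12 lower protein-coding genes, and the first 4 and 4 long non-coding RNAs, past 2-fold in both antibodies with limits apart, ranked by the smaller change, then list members past 2-fold in both, and a fixed set of 24 genes with known roles. Of the protein-coding genes 9 higher ones were available. Genes above 10 FPKM past 1.5-fold, the male germ cell list and further list members were named after their values were seen. A few genes that the rule names are not reported here. Alternatives were other pseudocounts, level filters and fold limits, no centring, the series-wide table (44135 of 44382 entries, by unique name), each antibody alone, limits apart, protein-coding genes alone and transcripts of at least 300 nt. The procedure was tested on simulated data, with changes larger than the 2-fold limit and noise smaller than the spread seen here. That test therefore does not show how reliable the calls are. Scripts ran under Python 3.11.15 with pandas 2.3.3, numpy 2.4.6 and scipy 1.17.1, and plots were drawn with matplotlib 3.10.9.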

Additional observations from a re-analysis of the deposited data

Results flagged for a closer look

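Spermatid genes stood above Sham in the AngII 4 h libraries, which the comparison did not use. Prm1 was at 14.3 FPKM in AngII 4h-IgG and 6.58 in AngII 4h-antiEZH2, against 0 in both Sham libraries. Prm2 was at 14.5 and 16.5 FPKM, against 0.552 and 0.838, and Tnp2 at 11.0 and 5.42 FPKM, against 0.666 and 0.

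Some named genes and lists changed in opposite directions in the 2 antibodies, a difference that was not tested, with 1 library on each side. The log2 change in anti-EZH2 minus that in IgG was 2.43 for Suz12, 1.67 for Postn, 0.65 for Nr1d1 and -2.38 for Per1. For list medians it was 0.80 for calcineurin and NFAT, 0.62 for ribosome biogenesis, 0.48 for the renin-angiotensin system, -0.25 for glucocorticoid and FoxO targets and -0.24 for mitochondrially encoded genes. The median of 200 small nuclear RNAs was 0.52 in IgG and -1.56 in anti-EZH2, a difference of -2.08.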

How the results depend on the processing

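The numbers of higher and lower genes depended on the settings, against 183 and 269. A pseudocount of 0.1 gave 283 higher genes and one of 1 gave 104. Keeping genes above 1 FPKM in all 4 libraries gave 48 and 73, with 2808 genes agreeing in direction, and above 5 FPKM in at least 2 gave 57 and 91. Limits of 1.5-fold gave 539 and 684, of 4-fold 20 and 46, and limits apart 11 and 21. Taken alone, the IgG libraries gave 988 and 942 genes and the anti-EZH2 libraries 957 and 1316. With 1.5-fold above 10 FPKM there were 6 and 14. Counts stayed within 1.5 times under no centring, the series-wide table, protein-coding genes alone, transcripts of at least 300 nt and a filter at 0. Shares of the genes tested moved by more than 1.5 times for the series-wide table and the filter at 0. In the main setting 2.21% of 8293 genes were higher and 3.24% lower. The series-wide table gave 4.43% and 5.24% of 5377 genes, and the filter at 0 gave 1.28% and 1.39% of 20115. The sign of 66 named genes was kept by both pseudocounts and changed for 3 without centring and for 9 of 64 in the series-wide table. The latter gave 0.74 for the called gene Gnai2 and, among genes lower by 1.5-fold above 10 FPKM, 2.17 for Hsp90b1, 0.58 for Hspb1, 0.52 for Ccdc107 and 0.23 for Igfbp7. It changed the sign of 11 of 34 list medians, and the cause was not tested. Genes of a few fragments, such as Prm1, cannot be measured closely at this depth. No paired analysis was possible because the groups share only 1 replicate number. The changes themselves were taken within each antibody, and replication between mice is missing.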

Other observations

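Mylpf, a fast skeletal muscle light chain, was at 34.7 FPKM in AngII 24h-IgG, 0.371 in AngII 24h-antiEZH2 and 0 in both Sham libraries, while the other 7 skeletal muscle markers were at 0 in AngII 24h-IgG. Small nucleolar RNAs differed by antibody, with a median change of -0.02 in IgG and -1.62 in anti-EZH2 over 110 genes.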
